A study of Homo sapiens with 4 samples.

Results

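Intergenic poly(A) site clusters (PACs) far from gene ends were examined in KYSE30 and TE-1, established human esophageal squamous cell carcinoma (ESCC) lines, by PAS-seq, a method that reads only the polyadenylated 3′ ends of RNA and thereby locates the cut of each transcript. In each line 1 library came from cells treated for 24 h with 20 mM l-lactate and 1 from control cells, which the labels describe as given PBS. The cell line fields of the control samples read KYSE32 and TE-3, whereas KYSE30 and TE-1 are named in their titles and in the study's methods, and these names were followed. A PAC was counted as intergenic when its dominant site (the position with most tags, taken from the library of highest TPM) lay outside every GENCODE v44 gene on its own strand and more than 5000 nt past the 3′ end of any protein-coding gene on that strand. By this rule, which used position and the listing at TPM above 1 but no comparison between libraries, 595 of 17627 PACs were members. TPM here is the number of tags scaled to the total tags of the library (as RPM), with no correction for length, since each transcript gives its tags at its 3′ end.

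There were no replicates of a condition in either line, so differences within a line carry no error between cultures. Intervals printed for TPM are exact Poisson 95% intervals and those for shares are Wilson 95% intervals, and both cover counting error only. The libraries held 7174991 to 10393799 tags and listed 14810 to 15048 PACs each, and the lowest TPM listed in a library stood for 8 to 11 tags. A PAC that is not listed in a library was therefore below about 1 TPM there or was removed by the filters of the authors, and is not known to be at 0. Of the 11 epithelial markers examined, 7 were listed, while KRT5, KRT14, TP63 and SFN were not listed in any library. KRT8 was between 969 and 2229 TPM and KRT18 between 166 and 293 TPM in the 4 libraries. KRT19 was at 1574 TPM with l-lactate and 1699 TPM in the control of KYSE30, but at most 2.95 TPM in TE-1. KRT17 was listed in TE-1 only, at 187 and 245 TPM, and KRT6A in KYSE30 only, at 40.4 and 20.3 TPM. EPCAM was at 563 to 635 TPM in KYSE30 and 30.7 to 36.4 TPM in TE-1, and CDH1 was at 204 to 228 TPM in KYSE30 but at most 1.30 TPM in TE-1. Of the markers of other cells, 3 of 6 fibroblast genes, 1 of 5 leukocyte genes and 1 of 3 endothelial genes were listed, none above 16.2 TPM.

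Cleavage and polyadenylation of an RNA made by polymerase II is usually directed by a hexamer, most often AATAAA, shortly upstream of the cut, although some sites lack any known signal. The same machinery acts on RNAs that no gene model covers. These include RNAs that start from the back of an active promoter, RNAs transcribed antisense to a gene, unannotated long noncoding RNAs, read-through past a gene end and retrocopies of mRNAs (processed pseudogenes). Many of these RNAs are short-lived in the nucleus, where the RNA exosome and adaptors such as the nuclear exosome targeting complex and the poly(A) exosome targeting connection degrade them.

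To show what the cleavage signals of these PACs look like, the 30 nt that end at the dominant site are given for PACs of each kind, read from GRCh38 and named by the annotated gene nearest to them in the sense used below. Capitals mark the hexamer found, and the last letter is the cleavage site.
past PSPHP1 (chr7:55773651-55773680, + strand): gtatgtcAATAAAagtttatccatgtgtca
past HLA-H (chr6:29891039-29891068, + strand): tttgagagacaaAATAAAtggaacacatga
antisense of SOAT2 (chr12:53106632-53106661, - strand): ttacagaAATAAAaactcacttcctcccca
past RPL23AP2 (chr19:15612145-15612174, + strand): ctgAATATAtatatatatatcttttcacca
past TPI1P1 (chr1:76700952-76700981, + strand): ccacgtgagggAATAAAcctggcactaggt
past ADH5P4 (chr6:65836673-65836702, - strand): aatattttaacatAATAAAagtaatttcta
antisense of DTWD2 (chr5:118974765-118974794, + strand): tgtccaacAATAAAcaggaattttattttg
divergent from SPEN (chr1:15834213-15834242, - strand): tgagtaTATAAAtaatacattgacccagta
downstream of DYNC2I1 (chr7:158981794-158981823, + strand): tttctAATAAAcgtgcctctttcactgtgc
downstream of IGF2BP2 (chr3:185635098-185635127, - strand): attaAATAAAtgttatagccatatagtgga
near LINC01256 (chr4:132528172-132528201, + strand): attttgagacccATTAAAaaagttaaatga
antisense of RABL6 (chr9:136834343-136834372, - strand): tgaatactgaccaaatatctgacgactgga
The PACs past PSPHP1 and antisense of SOAT2 carried AATAAA with 17 nt between it and the end of the printed sequence, and those past HLA-H and TPI1P1 carried it at 12 and 13 nt. The PAC past RPL23AP2 had the weaker variant AATATA and those divergent from SPEN and near LINC01256 had TATAAA and ATTAAA. The PAC antisense of RABL6 had none of the 13 hexamers searched.

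Across the 595 intergenic PACs, AATAAA lay within 50 nt upstream of the dominant site in 65.0% (61.1–68.8%), and in 66.6% (65.8–67.4%) of the 13692 PACs in 3′ UTRs of coding genes. A further 15.3% had ATTAAA, the second most frequent signal, and 11.8% had one of the 11 weaker variants. No signal was found in 7.90% (5.99–10.3%) of the intergenic PACs and in 3.62% (3.32–3.94%) of the 3′ UTR PACs, and these intervals did not overlap. Both shares varied with level. At 5 to 10 TPM no signal was found in 5.17% of intergenic and 5.18% of 3′ UTR PACs, and AATAAA was present in 65.5% (58.2–72.2%) and 61.9% (59.9–63.8%). Above 20 TPM, AATAAA was at 54.3% (40.2–67.8%) of 46 intergenic PACs and 71.3% (70.2–72.3%) of 6869 3′ UTR PACs. No signal was found in 6 of these 46 (6.12–25.7%) and in 2.78% of the 6869. The hexamer sat at a median of 16 nt from the site in both sets. TGTA, the core of the motif bound by NUDT21 of the cleavage factor CFIm, occurred within 100 nt upstream in 48.2% (44.2–52.2%) of the intergenic PACs against 58.0% (57.2–58.8%), searched on the transcribed strand only. The median GC content of the same sequence was 36% against 33%. An A-rich stretch in the 20 nt after the site (6 A in a row or 7 in 10), at which an oligo(dT) primer can also anneal, was present at 6.72% (4.98–9.03%) of the intergenic PACs and 3.06% (2.78–3.36%) of the 3′ UTR PACs. The part of such priming in these PACs was not tested. PACs outside genes but within 5000 nt past a coding gene had AATAAA in 68.4%, no signal in 3.29% and an A-rich stretch in 1.34%. The plot of sequence features by class shows that the position classes overlapped in their intervals for every feature drawn.

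**Figure D1:**
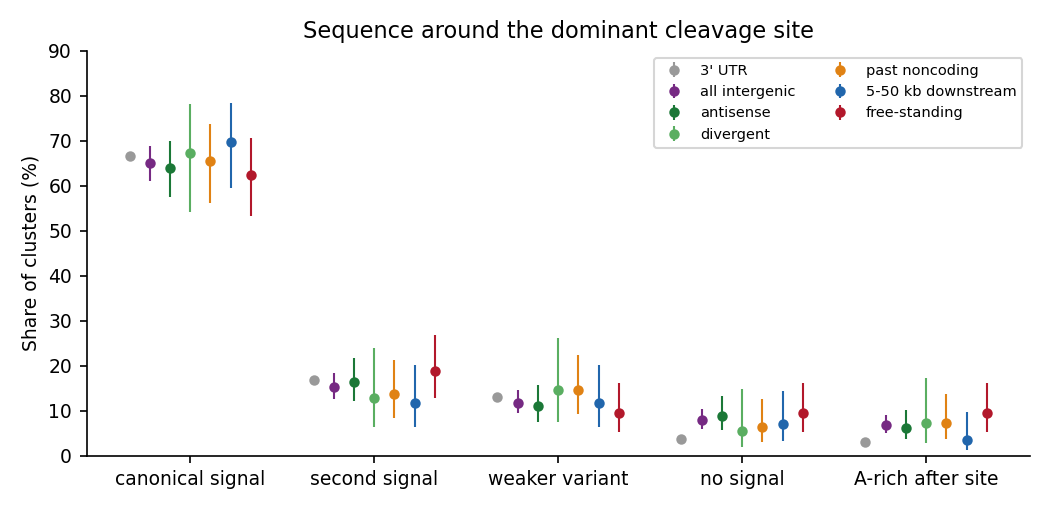
Share of PACs (%, vertical axis) with AATAAA (canonical signal), ATTAAA (second signal), a weaker variant or no signal in the 50 nt before the dominant site, and with an A-rich stretch in the 20 nt after it; points are shares and bars Wilson 95% intervals for 13692 3′ UTR PACs, all 595 intergenic PACs and the 5 position classes. The canonical signal was at 65.0% of all intergenic PACs and 66.6% of 3′ UTR PACs, while no signal was at 7.90% against 3.62%.

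Intergenic PACs were mostly of low level. Their median TPM in the library where each was highest was 5.08 (quartiles 3.64 and 8.52), against 20.1 for 3′ UTR PACs and 9.02 for PACs within 5000 nt past coding genes. Their median width was 2 nt against 5 nt in 3′ UTRs, and a median of 85% of their tags fell on the dominant site against 77.5%. Both measures varied with level, since at 5 to 10 TPM the widths were 2 and 3 nt and the shares 85.6% and 83.9%, and above 20 TPM the widths were 7.5 and 7 nt and the shares 67.7% and 74.2%, for intergenic and 3′ UTR PACs. Together they held 0.547% (0.542–0.553%) of the listed TPM with l-lactate and 0.558% (0.553–0.564%) in the control of KYSE30, and 0.448% (0.443–0.453%) and 0.415% (0.411–0.419%) in TE-1. The higher share with l-lactate in TE-1 rested on a PAC antisense of PCAT1 described below, and the shares without it were 0.388% and 0.380%. The 10 PACs of highest mean TPM held between 47.0% and 52.2% of the intergenic TPM of each library. PACs just inside and just outside the distance limit were alike in level, with a median highest TPM of 5.85 for the 26 PACs at up to 6000 nt past a coding gene (the closest at 5002 nt) and 4.47 for the 32 PACs left out at over 4000 nt (the farthest at 4966 nt).

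The 595 PACs were split by position into classes, and each was put in the first class below that applied. The antisense class, inside a gene of the opposite strand, had 227 PACs, 177 of them antisense to a coding gene, of which 160 lay in an intron and 17 in an exon. The divergent class, within 5000 nt upstream of the 5′ end of a coding gene on the other strand, had 55. Within 5000 nt past the 3′ end of a noncoding gene or pseudogene on the same strand were 110. Another 86, here called distal downstream, lay up to 50000 nt past a coding gene of their strand with no other gene start of that strand between. Genes of the opposite strand in between were not considered. The remaining 117 were free-standing. By TPM, PACs past noncoding genes held the most, with 42.1% to 47.9% of the intergenic TPM of a library, followed by the antisense class with 32.6% to 36.5%, while the divergent class held 4.42% to 5.64%. Of the 368 PACs outside GENCODE genes of both strands, 119 lay within the span of a gene of RefSeq (GRCh38.p14), which was matched without strand. On their own strand, 119 of the 595 PACs lay over 500000 nt past the last coding gene end.

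The PACs of highest mean TPM past noncoding genes followed pseudogenes, and 5 of these were among the 10 highest of all intergenic PACs. Of the 110 PACs past noncoding genes, 68 followed a lncRNA, 34 a pseudogene and 8 a small or other RNA gene. The 34 PACs past a pseudogene, 27 of them within 1000 nt of its annotated end, held 34.7% to 40.3% of the intergenic TPM of a library, and the 68 past a lncRNA held 6.12% to 7.56%. These 5 gave 88.3% to 94.5% of the pseudogene share, and the median highest TPM was 6.38 past pseudogenes and 4.99 past lncRNAs. Counting every class, 60 PACs lay within 5000 nt past a pseudogene. Of these 60, 45% were listed in all 4 libraries, and of the other 535 PACs 17.4% were. An A-rich stretch after the site was present at 15 (25%) of these 60 and at 40 of all 595 intergenic PACs. These 15 therefore weigh on the share of A-rich stretches given above for all intergenic PACs. A pseudogene can be a near copy of its parent gene or of that gene's mRNA, so tags could have been placed on either copy in the alignment. The levels of such PACs are uncertain for this reason.

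The PAC of highest mean TPM, 392 nt past PSPHP1 (chr7:55773442-55773695, + strand, GRCh38), a pseudogene of the phosphoserine phosphatase gene PSPH, was at 1199.6 TPM with l-lactate and 1084 TPM in the control of KYSE30, and at 292 and 255 TPM in TE-1. The 2 KYSE30 values were above both TE-1 values, by 4.10-fold with l-lactate and 4.24-fold in the controls. PSPH itself was at 253 and 268 TPM in KYSE30 and 56.0 and 55.1 TPM in TE-1, so the PAC was above the PACs assigned to its parent in every library. The PAC 586 nt past HLA-H (chr6:29891068-29891085, + strand), a pseudogene of the HLA class I family, which presents peptides to T cells, was at 78.5 and 69.6 TPM in KYSE30 and 832 and 726 TPM in TE-1. It was 10.6-fold and 10.4-fold higher in TE-1. The part of tags shared between this PAC and other genes of the family was not tested, so its level is uncertain.

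The PAC 52 nt past RPL23AP2, a copy of the ribosomal protein gene RPL23A, was at 206 and 215 TPM in KYSE30 and 175 and 177 TPM in TE-1. RPL23A was at 2278 and 2196 TPM in KYSE30 and 1828 and 1866 TPM in TE-1. Of the 16 PACs past pseudogenes of ribosomal protein genes, 11 were listed in all 4 libraries. Some copies were listed in a single line while their parents were listed in both. The PAC 443 nt past TPI1P1 was at 332 and 356 TPM in KYSE30 and not listed in TE-1, where TPI1, which encodes the glycolytic enzyme triosephosphate isomerase, was at 793 and 859 TPM. The PAC 581 nt past PRR13P5 was at 77.8 and 78.8 TPM in KYSE30 only, while PRR13 was at 20.6 and 25.7 TPM in KYSE30 and 330 and 353 TPM in TE-1. The PAC 257 nt past ADH5P4, a copy of the gene of the formaldehyde-oxidizing enzyme ADH5, was at 96.4 and 99.96 TPM in TE-1 only, while ADH5 was higher in KYSE30, at 95.5 and 92.5 TPM against 39.4 and 26.8 TPM. The PAC past MUC20P1, a copy of a mucin gene named after its values were seen, was at 4.46 and 5.66 TPM in KYSE30 only, as was MUC20, at 12.4 and 27.7 TPM. The PACs past TPI1P1 and PRR13P5 had an A-rich stretch after the site. Over 19 such PACs with TPM above 5 and a parent named by symbol, the log2 ratio of KYSE30 to TE-1 controls had a Spearman's rho of 0.26 with that of the parent, as a description across PACs that share their libraries.

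**Figure D2:**
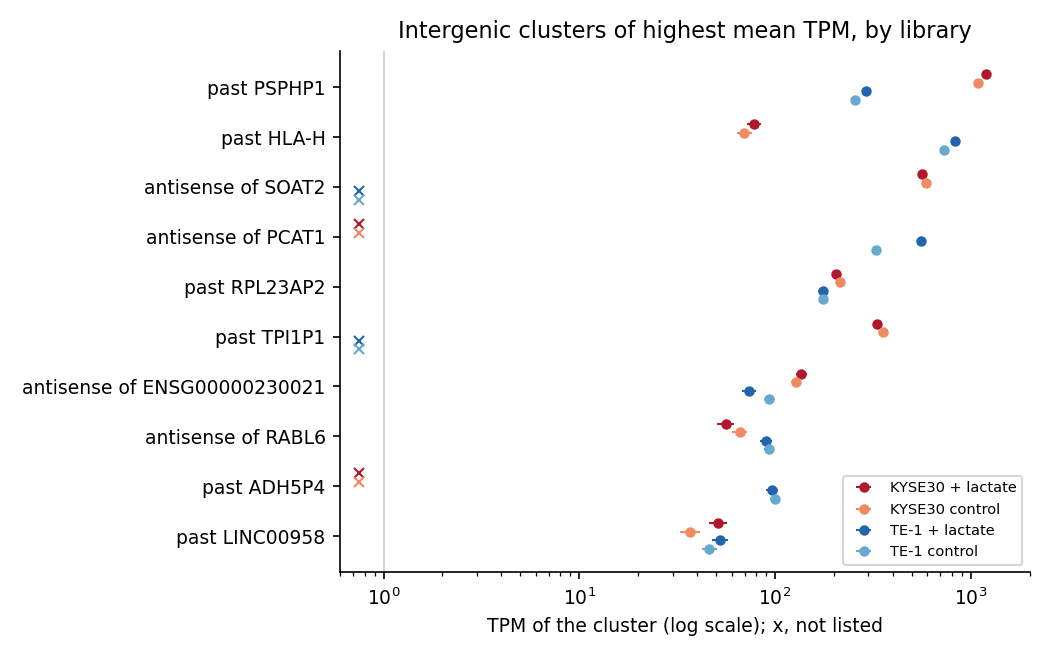
TPM (horizontal log axis) of the 10 intergenic PACs of highest mean TPM in each of the 4 libraries, with exact Poisson 95% intervals as bars and a cross at the left where the PAC was not listed. The lactate and control libraries of a line differed by 1.71-fold at PCAT1 in TE-1 and 1.39-fold at LINC00958 in KYSE30, while the lines differed by 4.24-fold in the controls at PSPHP1 and 10.4-fold at HLA-H, and 4 PACs were listed in 1 line only.

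Antisense PACs included very high levels in a single line. The PAC antisense of SOAT2 (chr12:53106627-53106635, − strand), the sterol O-acyltransferase gene, was at 563 and 587 TPM in KYSE30 and was not listed in TE-1. SOAT2 itself had no listed PAC, and RefSeq places LOC124902936 at this position. The PAC antisense of PCAT1 (chr8:127228548-127228559, − strand), inside the lncRNA gene PCAT1, was at 559 TPM (544–576) with l-lactate and 326 TPM (315–338) in the control of TE-1, a ratio of 1.71, and was not listed in KYSE30. PCAT1 was at 2.37 and 1.35 TPM in KYSE30 and had no listed PAC in TE-1. A PAC antisense of ENSG00000230021 (chr1:632694-632696, + strand), 79 nt past MTCO1P12, a nuclear copy of the mitochondrial cytochrome c oxidase gene, was at 136 and 128 TPM in KYSE30 and 73.7 and 93.4 TPM in TE-1, with an A-rich stretch and no signal. The part of tags shared between this copy and the mitochondrial gene was not tested, so its level is uncertain. The PAC antisense of RABL6 was at 56.0 and 66.1 TPM in KYSE30 and 90.1 and 93.2 TPM in TE-1. The tables give each PAC a strand, so the sense PACs of RABL6, at 73.7 to 104 TPM, are counted apart.

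Of the 177 antisense PACs with a coding host, 63.3% (112) had a listed host gene, and the rest were listed where their host was not. Among these 112, the median level was 16.2 TPM for the hosts and 2.64 TPM for the PACs. The log2 ratio of KYSE30 to TE-1, averaged over both treatments, had a Spearman's rho of 0.43 between PAC and host over the 60 with a listed host and TPM above 5, which all share the same libraries. Of the 29 such PACs listed in both KYSE30 and no TE-1 library, 26 had a host listed in TE-1, and in 15 the host was over 2-fold higher in KYSE30. Of the 23 listed in both TE-1 libraries only, 18 had a host listed in KYSE30, and in 11 the host was over 2-fold higher in TE-1. These PACs were chosen for being listed in 1 line, and their hosts were at higher levels, so the hosts could pass the listing limit more easily. Beside the 2-fold counts of hosts, 2197 of 11281 3′ UTR PACs with TPM above 5 were past 2-fold higher in KYSE30 and 1980 in TE-1. Those shares are of PACs in the controls alone, and no share over all genes was taken. A group of 3 PACs within 10000 nt antisense of ZFHX3, which encodes a transcription factor, was listed only in TE-1, at 8.03 and 7.99, 10.98 and 10.5, and 10.04 and 8.85 TPM with l-lactate and in the control, while ZFHX3 was at 14.2 and 15.9 TPM in KYSE30 and 11.7 and 11.1 TPM in TE-1. RefSeq places ZFHX3-AS3 at the first and second of these PACs. The first also lay 29 nt past the noncoding gene ENSG00000261227 on its own strand.

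Divergent PACs were at a median distance of 2022 nt from the 5′ end of their partner gene. The highest, 1882 nt from SPEN, which encodes a transcriptional repressor (chr1:15834079-15834216, − strand), was at 24.8 and 39.1 TPM in KYSE30 and 5.08 and 9.72 TPM in TE-1, and SPEN had no listed PAC. This PAC also lay 261 nt past the annotated end of SPEN-AS1, a noncoding gene on its own strand. The PAC 908 nt from ZC3HAV1L was at 5.99 and 4.44 TPM in KYSE30 and 18.2 and 23.7 TPM in TE-1, and that gene also had no listed PAC. The PAC 1169 nt from CKS2, which encodes a subunit of cyclin-dependent kinases, was at 17.7 and 21.0 TPM in KYSE30 and 4.02 and 5.20 TPM in TE-1, while CKS2 was at 722 and 707 TPM and 529 and 467 TPM. RefSeq places LOC107986852 at the PAC near ZC3HAV1L and LOC105376136 at that near CKS2. Of the 55 divergent PACs, 76.4% had a listed partner, with a median of 23.9 TPM against 2.87 TPM for the PACs. The line ratios of PAC and partner had a rho of 0.48 over 24 pairs.

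Distal downstream PACs lay a median of 10411 nt past the coding gene. A group of 4 within 10000 nt, 20279 to 26214 nt past DYNC2I1, the gene of a dynein intermediate chain, was listed in TE-1 only. The highest of them (chr7:158981822-158981824, + strand) was at 32.1 and 38.6 TPM and the others at 16.8 and 21.1, 9.21 and 7.89, and 4.96 and 5.20 TPM. RefSeq places LOC124901795 at the PAC of 16.8 and 21.1 TPM and at that of 9.21 and 7.89 TPM. DYNC2I1 was listed in both lines, at 15.5 and 16.7 TPM in KYSE30 and 34.0 and 30.7 TPM in TE-1. The PAC 8032 nt past IGF2BP2, which encodes an RNA-binding protein, was at 35.5 and 36.9 TPM in KYSE30 and not listed in TE-1, and IGF2BP2 showed the same pattern, at 26.9 TPM in both KYSE30 libraries and not listed in TE-1. The PAC 40068 nt past LRRC26 was found in both lines, at 16.9 and 22.8 TPM in KYSE30 and 14.2 and 18.2 TPM in TE-1. The gene nearest to it on either strand was GRIN1, at 9656 nt. A PAC 37387 nt past CBX8, a Polycomb gene, was at 29.4 and 33.5 TPM in TE-1 only, whereas CBX8 was at 8.08 to 13.5 TPM in the 4 libraries. Over 39 distal downstream PACs, the line ratios of PAC and upstream gene had a rho of 0.65. Of the 86 PACs, 77.9% had a listed upstream gene, with a median of 32.3 TPM for the genes against 2.77 TPM for the PACs. A gene with several PACs, such as DYNC2I1, was counted once for each PAC in these values.

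Free-standing PACs lay a median of 12973 nt from the nearest annotated gene of either strand, and 20 lay over 50000 nt from any. The highest value in any library, at a PAC 20283 nt from ENSG00000279918 (chr4:19077916-19077916, − strand), was in KYSE30, at 40.1 and 48.5 TPM, and the PAC was not listed in TE-1, covering a single position with an A-rich stretch and no signal. The PAC 62863 nt from LINC01256 (chr4:132528201-132528219, + strand), also with an A-rich stretch, had the highest mean TPM of the class (33.4) and was found in both lines, at 47.0 and 39.997 TPM in KYSE30 and 23.3 and 23.4 TPM in TE-1. The PAC 1344 nt from LINC02514 was at 32.5 TPM in both KYSE30 libraries and not listed in TE-1. RefSeq places LOC339975 at this position, and 37 of the 117 free-standing PACs lay within the span of a RefSeq gene. The 3 PACs farthest from any gene were 222870 nt from SEC61GP1, at 5.02 and 4.04 TPM in KYSE30 only, and 204079 and 202851 nt from RPL24P9 on the X chromosome, at 8.03 and 7.70 TPM and 6.49 and 5.10 TPM in TE-1 only. The first had an A-rich stretch and no signal, and the others had ATTAAA and AATAAA.

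Other PACs of a single line were found past noncoding genes. In KYSE30 only, the PAC 1 nt past the annotated end of LINC02967 was at 52.8 and 53.7 TPM. In TE-1 only, the PAC 437 nt past RN7SKP259, a copy of the 7SK RNA gene, was at 47.0 and 41.2 TPM. A group of 4 PACs past LINC01843 and RN7SL541P on chromosome 5 was listed in KYSE30 only, at up to 5.44 TPM. The PAC 1755 nt past LINC00958 (chr11:12959546-12959792, − strand) was listed in all 4 libraries, at 51.0 TPM (45.9–56.5) with l-lactate and 36.8 TPM (32.5–41.4) in the control of KYSE30, and at 52.2 TPM (47.4–57.3) and 46.2 TPM (42.1–50.5) in TE-1. The intervals of l-lactate and control overlapped in TE-1 and not in KYSE30. The line difference of this PAC did not pass the test (adjusted p = 0.20, limma), nor did its l-lactate difference (adjusted p = 0.56, limma). A second PAC past LINC00958 was lower in KYSE30, by a log2 difference of -1.06 ± 0.23 (SE, adjusted p = 0.0097, limma). LINC00958 itself was at 52.7 TPM with l-lactate and 68.3 TPM in the control of KYSE30, and at 117 and 140 TPM in TE-1. Most PACs stood alone, with 513 of 595 having no other intergenic PAC of their strand within 10000 nt.

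The lines differed in which intergenic PACs they used. Of the intergenic PACs, 20.2% (17.1–23.6%) were listed in all 4 libraries, against 77.4% (76.7–78.1%) of 3′ UTR PACs and 63.7% (60.3–66.9%) of those within 5000 nt past coding genes. Another 30.1% (26.5–33.9%) were listed in both KYSE30 libraries and neither TE-1 library, and 21.0% (17.9–24.5%) the other way round, against 7.01% and 6.30% of 3′ UTR PACs. The difference was also present between PACs of similar level. At 5 to 10 TPM 23.0% (17.4–29.8%) of intergenic and 61.2% (59.3–63.2%) of 3′ UTR PACs were listed in all 4, and above 20 TPM 50% (36.1–63.9%) and 94.7% (94.2–95.2%). The free-standing class had the lowest share in all 4 libraries, at 6.84% (3.51–12.9%), and the divergent and past noncoding classes the highest, both at 27.3%.

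**Figure D3:**
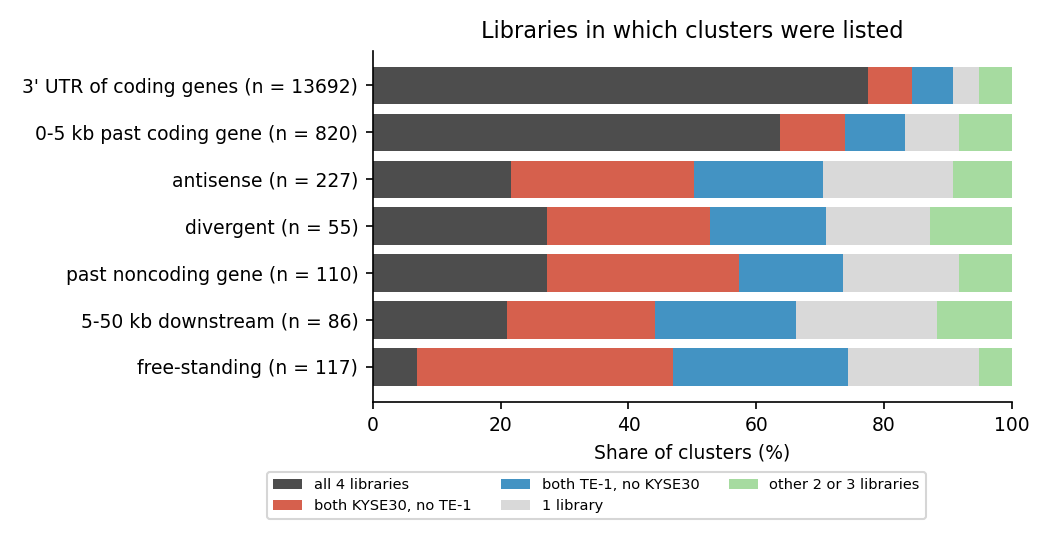
Share of PACs (%, horizontal axis) by the libraries that listed them, for 3′ UTR PACs, PACs within 5000 nt past coding genes and the 5 intergenic classes, with the number of PACs beside each bar. PACs listed in all 4 libraries made up 77.4% of 3′ UTR PACs and 6.84% of free-standing PACs.

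In the fit over the 4 libraries (limma on log2(TPM + 1) with terms for line and treatment), 352 of the 595 intergenic PACs passed the filter of a mean TPM above 2, and a PAC found in 1 line only passed it through that line. The fit called 177 of the 352 higher in KYSE30 and 118 higher in TE-1 at an adjusted p below 0.05. Of all 15221 PACs tested, 34.4% and 33.6% were called in these directions. A PAC not listed in a line enters there as 0, so its call largely restates the listing. Among PACs listed in all 4 libraries, 47 and 25 of 112 intergenic PACs were called, where 33.9% of all 12225 were called each way. Leaving out 1 library ends the test, since the fit has 1 residual degree of freedom, and a line difference here is between 1 culture of each line under each treatment. The PAC past PSPHP1 was higher in KYSE30 by 2.06 ± 0.06 on the log2 scale (SE, adjusted p = 2.9e-05) and that past HLA-H was lower by a log2 difference of -3.38 ± 0.06 (adjusted p = 1.4e-05). For PACs not listed in a line the fitted difference depends on the pseudocount and is not given. Among PACs with TPM above 5 in a library, the log2 ratio of KYSE30 to TE-1 controls had an SD of 3.08 over 256 intergenic PACs and 1.71 over 11281 3′ UTR PACs. With l-lactate these SDs were 2.97 and 1.69. PACs not listed in a line enter these values as 0, so they largely restate the listing pattern. Among PACs at 5 to 20 TPM that both controls listed, an alternative chosen after seeing the data, the SD was 1.05 over 65 intergenic PACs and 0.93 over 3721 3′ UTR PACs, and 44.6% and 26.9% were past 2-fold. With l-lactate the SDs were 1.09 over 85 and 0.89 over 3805 PACs, with 36.5% and 24.7% past 2-fold.

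**Figure D4:**
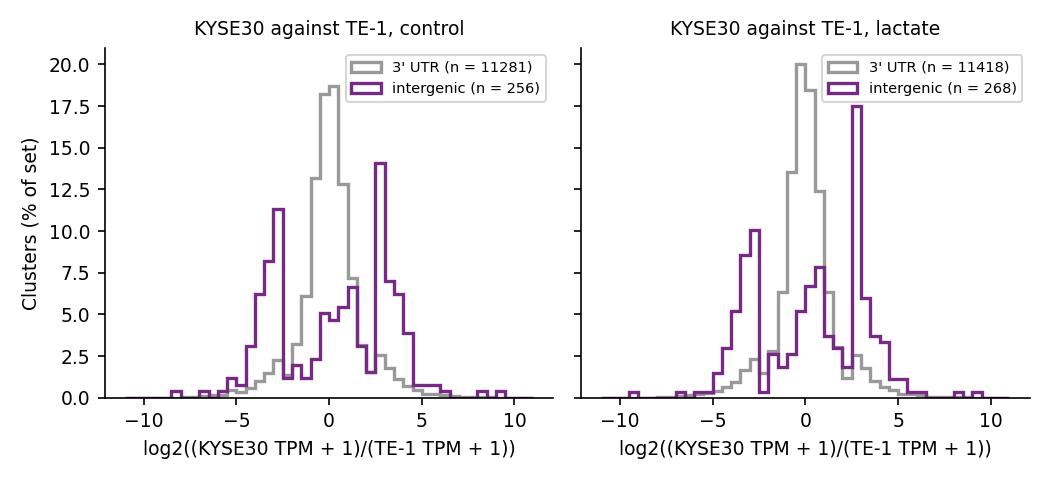
Distribution of the log2 ratio of KYSE30 to TE-1 (TPM + 1, horizontal axis) in the control and the lactate libraries, as the share of PACs (%, vertical axis) with TPM above 5 in at least 1 of the libraries compared, for intergenic (purple) and 3′ UTR (grey) PACs. Intergenic PACs had peaks on either side of 0, made up of PACs not listed in a line, with an SD of 3.08 in the controls against 1.71.

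Intergenic PACs were spread over the chromosomes unevenly. There were 5.80 per 100 PACs on chromosome 5 and 5.76 on chromosome 7, against 1.62 on chromosome 15 and 3.12 on chromosome 1, which had the most (59). In all, 179 intergenic PACs were listed in both libraries of KYSE30 alone and 125 in those of TE-1 alone. By chromosome these counts were 22 and 7 on chromosome 1 (205 and 124 over all PACs), 17 and 4 on chromosome 8 (73 and 47), 16 and 7 on chromosome 3 (103 and 83), 10 and 3 on chromosome 12 (79 and 76) and 7 and 1 on chromosome 22 (41 and 27). They were 7 and 16 on chromosome 7 (71 and 71) and 3 and 10 on chromosome 19 (83 and 83). The copy number of these chromosomes in the cells used was not measured, and its part in the pattern was not tested.

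To ask whether l-lactate changed intergenic PACs, the libraries of each line were compared. Among intergenic PACs with TPM above 5 in a line, 4 of 202 were 2-fold or more higher with l-lactate in KYSE30 and 3 were lower, where 0.665% and 0.574% of all 12022 PACs were. In TE-1, 4 of 159 were higher and 4 lower, where 0.86% and 0.607% of all 11861 PACs were. Among PACs at 5 to 20 TPM, where most intergenic PACs lie, the shares were 2.33% higher and 1.74% lower of 172 intergenic PACs against 1.33% and 1.11% of all PACs in KYSE30, and 2.96% and 2.22% of 135 against 1.64% and 1.27% in TE-1. The median log2 ratio was -0.04 in KYSE30 and -0.01 in TE-1, against 0.00 and 0.04 over all PACs. Of the 15 cases in all, 8 were of PACs that were listed in only 1 library of the line. Of the 7 others, those at the highest levels, named after their values were seen, were antisense of the lncRNA gene PVT1 (23.6 TPM with l-lactate and 49.8 TPM in the control of TE-1), of ZNF675 (18.7 and 6.74 TPM in TE-1) and of TUSC3 (15.3 and 7.14 TPM in KYSE30), none of them listed in the other line.

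The fit over both lines called no PAC for l-lactate, with 0% of the 15221 PACs tested called in either direction. At an unadjusted p below 0.05 it had 1340 of the 15221 PACs and 18 of the 352 intergenic PACs tested. The lowest adjusted p of an intergenic PAC was 0.12 (limma), for a PAC antisense of SPTAN1. That PAC was at 3.90 and 4.13 TPM with l-lactate in KYSE30 and TE-1 and not listed in either control. With TPM above 5 in each line, 56 intergenic PACs could be compared in both, and 34 moved the same way. The share moving the same way over all PACs was not taken, so this count has nothing to be set against. The log2 ratios of the lines had a rho of 0.32 over these PACs and 0.26 over all 9828 PACs so compared, as a description.

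A single intergenic PAC with TPM above 5 in each line was past 2-fold the same way in both. It lay antisense of DTWD2 (chr5:118974789-118974798, + strand) and was at 9.34 TPM (7.24–11.9) with l-lactate and 3.64 TPM (2.40–5.29) in the control of KYSE30, and at 11.7 TPM (9.50–14.2) and 3.95 TPM (2.83–5.35) in TE-1, or 2.57-fold and 2.96-fold higher. The intervals of l-lactate and control did not overlap in either line. With a pseudocount of 1 the log2 ratios were 1.16 in KYSE30 and 1.36 in TE-1. With a pseudocount of 5 they were 0.73 and 0.90, under 2-fold in both lines. The fitted log2 difference was 1.26 ± 0.19 (SE), with an adjusted p of 0.45 in the limma fit. RefSeq places PTMAP2, a pseudogene of the prothymosin alpha gene PTMA, at this position, and an A-rich stretch follows the site. PTMA, a small acidic nuclear protein gene, was itself higher with l-lactate, at 335 and 218.2 TPM in KYSE30 and 467 and 228 TPM in TE-1, log2 ratios of 0.62 and 1.03. The part of tags shared between PTMA and its copy in this result was not tested. DTWD2 had no listed PAC.

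The divergent PAC of SPEN was lower with l-lactate in both lines without reaching 2-fold in either on the log2(TPM + 1) scale, at 24.8 TPM (21.3–28.7) against 39.1 TPM (34.7–43.8) in KYSE30 and 5.08 TPM (3.67–6.84) against 9.72 TPM (7.91–11.8) in TE-1. The fitted log2 difference was -0.73 ± 0.14 (SE), with an adjusted p of 0.56 in the limma fit. In a fit restricted to the 12225 PACs listed in all 4 libraries, 1.03% of all PACs were called higher with l-lactate and 0.573% lower, and 4 of 112 intergenic PACs were called: DTWD2 antisense higher (adjusted p = 0.0010), and lower SPEN divergent (0.015), past LENG8-AS1 (0.029) and downstream of GEMIN5 (0.035), in the limma test. The last 2 were named after their values were seen, at 4.60 and 7.14 TPM past LENG8-AS1 in KYSE30 and 1.54 and 5.68 TPM in TE-1, and at 5.44 and 9.02 TPM downstream of GEMIN5 in KYSE30 and 7.44 and 14.6 TPM in TE-1, each with l-lactate and in the control. The scatter of log2 ratios in both lines shows these PACs at its edges.

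**Figure D5:**
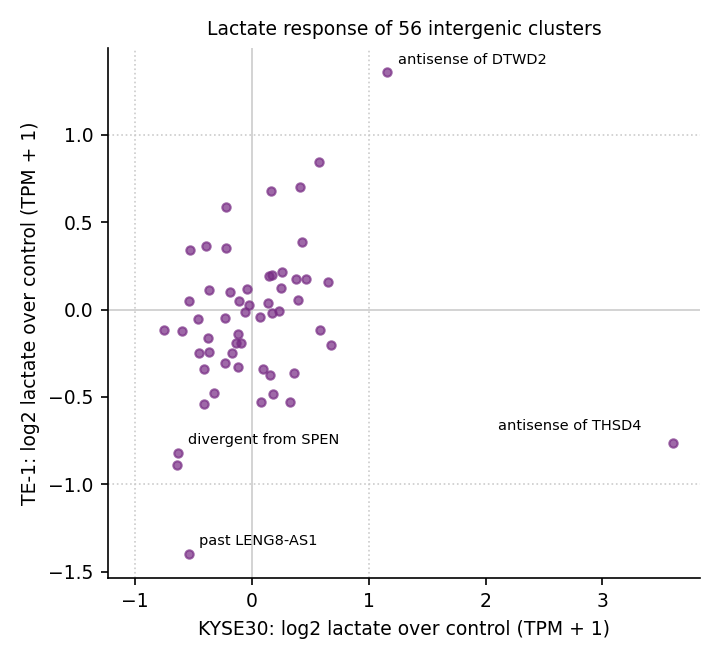
Log2 ratio of lactate to control (TPM + 1) in KYSE30 (horizontal axis) and TE-1 (vertical axis) for the 56 intergenic PACs with TPM above 5 in each line, 1 library per condition; dotted lines mark 2-fold. The PAC antisense of DTWD2 was past 2-fold higher in both lines (1.16 and 1.36), and that antisense of THSD4 was at 3.60 in KYSE30 and -0.763 in TE-1.

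The dominant site within intergenic PACs was mostly the same with l-lactate. A dominant site can move only within its PAC, and intergenic PACs with TPM above 5 in any library had a median width of 4 nt. The comparison therefore left little room for long moves, and no share over all PACs was taken. Of 134 PACs with TPM above 5 in both KYSE30 libraries, 127 kept their dominant site and 1 moved upstream by more than 24 nt, and of 119 in TE-1, 110 kept it, 2 moved downstream and 1 upstream. The 3 PACs with moves over 24 nt were divergent from SPEN (134 nt upstream with l-lactate in TE-1, 0 in KYSE30), a second PAC antisense of PCAT1 (128 nt downstream in TE-1, 0 in KYSE30) and the PAC antisense of ENSG00000246250 (107 nt upstream in KYSE30 and 107 nt downstream in TE-1).

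Factors that degrade or terminate such RNAs were compared at the level of their genes. Of 20 genes of nuclear RNA decay, including the helicase MTREX, the exosome subunits and the poly(A)-binding protein PABPN1, 18 were listed and 17 tested, and none was called for l-lactate (limma, lowest adjusted p = 0.57, where 0 of 10642 genes were called and the lowest adjusted p was 0.088). MTREX was at 53.0 and 50.1 TPM in KYSE30 and 62.6 and 65.6 TPM in TE-1. RBM7, an RNA-binding subunit of the nuclear exosome targeting complex, was at 1.81 and 3.50 TPM in KYSE30 and 3.07 and 6.16 TPM in TE-1, and PABPN1 was listed in 1 library of each line, at 3.90 and 3.46 TPM. Of 8 genes of transcription termination, 6 were listed, and none was called (lowest adjusted p = 0.55, limma), with PCF11, a termination factor, at 23.4 and 22.9 TPM in KYSE30 and 44.2 and 39.2 TPM in TE-1. The medians of the fitted log2 differences were 0.00 and 0.06, against 0.02 over all genes.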

How the data were processed

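PAS-seq libraries of KYSE30 and TE-1 cells with and without l-lactate were used, 1 per condition and line. According to the study's methods, the authors trimmed reads with the FASTX-Toolkit, aligned them with HISAT2 to GRCh38 (GRCh38.p14 in the processing notes), and built clusters with CAGEr, leaving out poorly supported sites and joining near ones. The values deposited by the authors are RPM (headed TPM), the tags of a cluster relative to all tags of its library. Depth was found from the common step of these values, which gave whole tags throughout (within 0.1).

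Clusters were placed on GENCODE 44 by dominant site. Clusters on scaffolds with no annotation (6) were left out. Unlisted clusters entered as 0 with a pseudocount of 1. The fit was limma 3.58.1 (R 4.3.3) on log2(TPM + 1) for line plus treatment, with a trend, Benjamini-Hochberg adjustment and clusters of mean TPM above 2. It was also run on simulated tags that carried counting error but no variation between cultures. That run cannot show the error of the fit on these data. Per-line counts used TPM above 5 in the line and a 2-fold change. Gene levels were summed over same-strand clusters in 3′ UTRs, then exons, then gene bodies. Signals were sought in the 50 nt before the site. Clusters named are the 10 of highest mean TPM, those past 2-fold in both lines, the 5 of largest line ratio each way, the 3 highest per class, the 3 farthest from genes, the 3 largest site shifts, and the 3 largest groups; others were named after their values were seen. The members, classes and gene lists were chosen with earlier results of these data known. Alternatives changed the distance, strand, annotation, level, window, pseudocount, filter, trend and scaling. Tables and plots were made with pandas 2.3.3 and SciPy 1.17.1 under Python 3.11.15, and sequences were read with pysam 0.24.0.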

Additional observations from a re-analysis of the deposited data

Results flagged for a closer look

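A PAC antisense of THSD4 (chr15:71340600-71340607, − strand) moved in opposite directions in the lines. With l-lactate it was at 11.2 TPM in KYSE30 and was not listed in the control, while in TE-1 it was at 9.56 TPM against 16.9 TPM. The log2 ratios of lactate to control (TPM + 1) were 3.60 in KYSE30 and -0.763 in TE-1. With 1 library per condition in each line the difference was not tested. The PAC lies 552 nt past RPL17P39, a copy of the ribosomal protein gene RPL17, which was at 228 to 241 TPM in the 4 libraries, and the part of tags shared between them was not tested.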

How the results depend on the processing

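The number of intergenic PACs (595) was 730 and 501 with limits of 2000 and 10000 nt and 590 when the dominant site of every library had to qualify, but 368 when genes of either strand were left out, 377 with 3′ ends of genes of any biotype and 305 at TPM above 5. The AATAAA share stayed between 63.6% and 65.2%, and was 80.3% with ATTAAA counted. The share of listed TPM in TE-1 without the PAC antisense of PCAT1, an alternative chosen after seeing the data, was 0.3877% (l-lactate) and 0.3798% (control). For KYSE30 (4 higher and 3 lower with l-lactate), a pseudocount of 5 left 2 higher, PACs listed in both libraries gave 2 and 0, TPM above 10 gave 2 and 0, and 1.5-fold gave 16 and 19. In TE-1 (4 higher, 4 lower), a pseudocount of 5 left 1 lower, PACs listed in both libraries gave 2 higher, TPM above 10 gave 2 and 1, and 1.5-fold gave 15 and 10. Rescaling to the median ratio left all these counts as they were. The PAC antisense of DTWD2 fell under 2-fold in both lines with a pseudocount of 5, at log2 ratios of 0.73 (KYSE30) and 0.90 (TE-1). In the limma fit over both lines, PACs listed in all 4 libraries gave 1 intergenic PAC higher and 3 lower of 112 with l-lactate (1.03% and 0.573% of all PACs), and the other alternatives gave 0. Between the lines, 177 higher and 118 lower became 65 and 51 of 134 at mean TPM above 5, where 35.6% and 36.1% of all PACs were called, and 47 and 25 of 112 among PACs listed in all 4, where 33.9% were called each way.

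A count test on recovered tags was not run, since the tables leave out the lowest values. The limma fit pairs l-lactate and control by line through its line term, and no further pairing was made because each group has 1 library. Leaving out a library leaves no residual degree of freedom. Low depth limits most intergenic PACs, at a median of 5.08 TPM in their highest library.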

Other observations

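Clusters on unplaced or unlocalized scaffolds, which have no gene annotation here, were few (6). The highest was on GL000194.1, at 6.85 TPM with l-lactate and 12.9 TPM in the control of TE-1 and not listed in KYSE30. A cluster on GL000195.1 was listed in all 4 libraries, at 3.21 and 6.20 TPM in KYSE30 and 7.09 and 8.27 TPM in TE-1, with l-lactate and in the control.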
